A study of Mus musculus with 9 samples.

Results

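Omp, S100a5, Cdhr1, Doc2g, Eomes, Tbx21 and Sp8 are 7 genes that mark the olfactory nerve and the olfactory bulb, out of 22192 genes measured. They were found by name in the table and had been chosen from their measured values in these same libraries, so their levels are given here as a description and without a test. RNA was taken from KM mice labelled male, an outbred stock, and sequenced in 9 libraries of 3 groups with 3 libraries each. Aged GRP-E1F2 mice were 18 months old and were gavaged every 2 days over 4 weeks with 200 mg/kg of GRP-E1F2, which is a ginseng root polysaccharide fraction. Aged saline mice had the same age and received physiological saline on that schedule. Young saline mice were 5 months old and were given the same saline. No young mice received GRP-E1F2. The libraries of a group are labelled as parallel samples, and nothing states that they came from separate animals, so the spread between them may be technical.

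The olfactory nerve is made of the axons of sensory neurons whose cell bodies lie in the nasal epithelium. The axons end in the glomeruli of the olfactory bulb, where they contact mitral and tufted cells, the glutamatergic neurons that carry the signal on to the olfactory cortex. Granule and periglomerular cells, the inhibitory interneurons of the bulb, are added through adult life by neuroblasts that migrate along the rostral stream. Omp encodes the olfactory marker protein of mature sensory neurons, and S100a5 encodes a calcium-binding protein of the same cells. Cdhr1, a cadherin, and Doc2g, of the double C2 domain family, are made by mitral and tufted cells, as are the T-box transcription factors Eomes and Tbx21. Sp8 is a zinc finger transcription factor of bulb interneurons and not of projection neurons, so the 7 genes span 3 cell classes.

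The 7 genes lie on 7 different chromosomes of GRCm38.p6, which is mm10 under its other name. Omp is at chr7:98143359-98145447, inside the span of Capn5 and on the same strand. S100a5 is at chr3:90606480-90611784, beside other S100 genes. Cdhr1 is at chr14:37077849-37098347, Doc2g at chr19:4003385-4007005 and Eomes at chr9:118478186-118486132. Tbx21 is at chr11:97098007-97115331 and Sp8 at chr12:118846288-118852578. In GENCODE vM21 a gene that joins Nudt8 to Doc2g overlaps the first exons of Doc2g, and an antisense gene overlaps the end of Eomes.

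Sequence upstream of a start site is shown for the 5 genes with an entry whose levels differed most between groups, because 4 of them, Cdhr1, Doc2g, Tbx21 and Sp8, had their highest level in the same library. The sequences are from RefSeq, of the GRCm38.p6 build, and 6 of the 7 genes matched an entry, all but Omp. Each is written from 5′ to 3′ on the strand of its gene, and capitals mark any motif found.
S100a5, chr3:90608272-90608521, plus strand: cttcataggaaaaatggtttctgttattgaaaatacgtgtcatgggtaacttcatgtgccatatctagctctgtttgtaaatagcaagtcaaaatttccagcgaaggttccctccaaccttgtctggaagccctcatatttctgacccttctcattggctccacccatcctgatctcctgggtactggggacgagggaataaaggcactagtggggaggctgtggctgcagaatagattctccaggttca
Cdhr1, chr14:37098348-37098597, minus strand: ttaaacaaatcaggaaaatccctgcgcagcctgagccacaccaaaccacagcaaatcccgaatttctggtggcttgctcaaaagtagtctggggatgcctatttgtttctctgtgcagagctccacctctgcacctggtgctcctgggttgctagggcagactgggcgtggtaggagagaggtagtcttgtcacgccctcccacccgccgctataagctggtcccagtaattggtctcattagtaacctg
Doc2g, chr19:4003135-4003312, plus strand: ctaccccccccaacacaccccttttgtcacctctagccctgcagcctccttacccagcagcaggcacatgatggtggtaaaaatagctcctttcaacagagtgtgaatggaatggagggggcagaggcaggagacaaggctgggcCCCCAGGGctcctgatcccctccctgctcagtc
Tbx21, chr11:97115332-97115581, minus strand: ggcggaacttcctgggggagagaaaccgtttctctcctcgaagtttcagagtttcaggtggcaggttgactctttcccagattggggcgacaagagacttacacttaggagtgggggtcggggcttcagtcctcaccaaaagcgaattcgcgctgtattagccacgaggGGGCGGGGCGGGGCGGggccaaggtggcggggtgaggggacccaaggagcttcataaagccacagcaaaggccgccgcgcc
Sp8, chr12:118846079-118846328, plus strand: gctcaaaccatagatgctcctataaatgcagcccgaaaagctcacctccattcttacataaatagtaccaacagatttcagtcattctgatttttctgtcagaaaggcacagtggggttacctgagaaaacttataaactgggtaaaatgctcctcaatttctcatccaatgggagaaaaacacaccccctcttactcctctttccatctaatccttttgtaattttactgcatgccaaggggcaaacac
4 motifs were searched on both strands. The T-box core AGGTGT was in none of these windows, against 11.8% of all 32851 promoters in the table. The Ebf core CCCNNGGG, named for a factor of olfactory sensory neurons, was found once in Doc2g, 105 bases upstream of its RefSeq start, against 11.8% of all promoters. The GC box GGGCGG, the kind of site that Sp factors bind, was found 3 times in Tbx21 in overlapping copies, 81, 76 and 71 bases upstream, against 32.7% of all promoters. The homeodomain core TAATTA was in none of the 5 windows, against 4.84% of all promoters. Sp8 has 3 windows in the table, of which the first is shown, and the others hold a GC box 14 bases upstream and TAATTA 188 bases upstream of their own starts. The windows are up to 250 bases long, and the table's promoters are longer than the 178 bases kept for Doc2g. That of S100a5 lies wholly inside the RefSeq span of its gene. The Sp8 window shown reaches into the span of Sp8, and its other windows lie inside that span. A match is a description of letters and not of a bound site, and a missing motif says nothing beyond these windows.

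3 features of the whole series touch these genes. In the first, library 3 of aged GRP-E1F2, library 2 of aged saline and library 3 of young saline each lay between the other pair of their group at 94.3%, 93.5% and 92.8% of the genes at which that pair differed by at least 1.3-fold in TPM + 1, against 15.9% to 29.8% for the other 6 libraries. These 3 are called middle libraries, and results are given with and without them. In the second, the summed level of 10 Purkinje and granule cell genes of the cerebellum was 135, 146 and 143 TPM (a share of a library's transcripts corrected for length) in aged GRP-E1F2, 2005, 2267 and 2400 TPM in aged saline, and 3296, 4770 and 3986 TPM in young saline. Aged GRP-E1F2 was far below both saline groups in this sum, and young saline was the highest. Most of the sum in aged GRP-E1F2 was Calb1, at 92.7, 97.9 and 99.5 TPM, which is also on the list of bulb interneurons. Of these 10 genes all fell with treatment and 9 fell with age, and the age count was 2 without aged saline library 2 or young saline library 3 and 0 without the 3 middle libraries, with 10 at an unadjusted p under 0.05. Lastly, 4 Y-linked genes reached at most 0.174 TPM in any library, although the mice are labelled male. The tissue is labelled brain while the extraction text speaks of retina. Snap25, a neuronal synaptic protein, was at 2448 to 3573 TPM in all libraries. Of 10 genes of brain tissue in general 1 rose and 4 fell with treatment, and 1 rose and 3 fell with age. Sequencing depth cannot be read from TPM, and no counting error is given. All levels below are in TPM, which are per length and can be compared between genes, and all log2 differences are of log2(TPM + 1), which understates the change of low genes. Levels in bulk RNA cannot tell fewer cells of a type apart from less RNA per cell.

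Both genes of the nerve were high in the aged groups and near 1 TPM or below in young mice. Omp was at 5.19, 22.8 and 11.7 TPM in aged GRP-E1F2, at 30.6, 22.8 and 16.0 TPM in aged saline, and at 0.793, 0.825 and 1.45 TPM in young saline. Each aged library was above each young library, and the 2 aged groups overlapped. The mean was 13.2 ± 8.93 TPM in aged GRP-E1F2, 23.2 ± 7.30 TPM in aged saline and 1.02 ± 0.372 TPM in young saline (SD, n = 3 each). The log2 difference was 3.55 for aged saline minus young saline (the age comparison), a ratio of mean TPM of 22.6. For aged GRP-E1F2 minus aged saline (the treatment comparison) it was -0.93, within the spread of the libraries, and it was -0.43 without aged GRP-E1F2 library 1 and -1.40 without library 2.

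S100a5 was at 4.78, 48.1 and 31.3 TPM in aged GRP-E1F2, at 54.9, 44.1 and 17.7 TPM in aged saline, and at 0.614, 0.643 and 0.632 TPM in young saline. The young libraries were almost level and the aged ones ranged widely. Its mean was 28.1 ± 21.9 TPM in aged GRP-E1F2, 38.9 ± 19.2 TPM in aged saline and 0.630 ± 0.0146 TPM in young saline (SD, n = 3 each). Between aged saline and young saline it differed by 4.47 on the log2 scale, the widest of the 7 genes, with a ratio of means of 61.7. For aged GRP-E1F2 minus aged saline the log2 difference was -0.79, and it turned to 0.14 without aged GRP-E1F2 library 1. It was -1.40 without aged GRP-E1F2 library 2, -0.47 without aged saline library 1 and -1.26 without aged saline library 3. Without the 3 middle libraries the age differences were 3.68 for Omp and 4.31 for S100a5, and the treatment differences were -0.93 and -0.94.

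The 2 nerve genes followed each other over the libraries of the aged groups. In aged GRP-E1F2 both were highest in library 2 and lowest in library 1, and in aged saline both were highest in library 1 and lowest in library 3. In young saline Omp was highest in library 3, while S100a5 was nearly level. S100a5 divided by Omp was 0.921, 2.11 and 2.68 in aged GRP-E1F2, 1.79, 1.93 and 1.10 in aged saline, and 0.775, 0.780 and 0.435 in young saline. The ratio was thus below 1 in each young library and above 1 in 5 of the 6 aged libraries. The genes beside them on the chromosome had other library orders in aged GRP-E1F2. Capn5, a calpain protease whose gene encloses Omp, was at 18.5, 11.1 and 13.5 TPM in aged GRP-E1F2, 11.7, 12.4 and 13.2 TPM in aged saline, and 9.90, 9.003 and 9.44 TPM in young saline, so each aged library was above each young one as for Omp, over a smaller range. Of 3 related calcium-binding genes beside S100a5, S100a3 averaged 7.03 TPM in aged GRP-E1F2, 3.39 TPM in aged saline and 1.15 TPM in young saline, and S100a4 averaged 11.9 TPM in aged GRP-E1F2, 7.31 TPM in aged saline and 5.91 TPM in young saline. S100a6 was at 166, 82.4 and 121 TPM in aged GRP-E1F2, 83.1, 73.2 and 72.8 TPM in aged saline, and 106, 79.6 and 83.0 TPM in young saline.

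**Figure D1:**
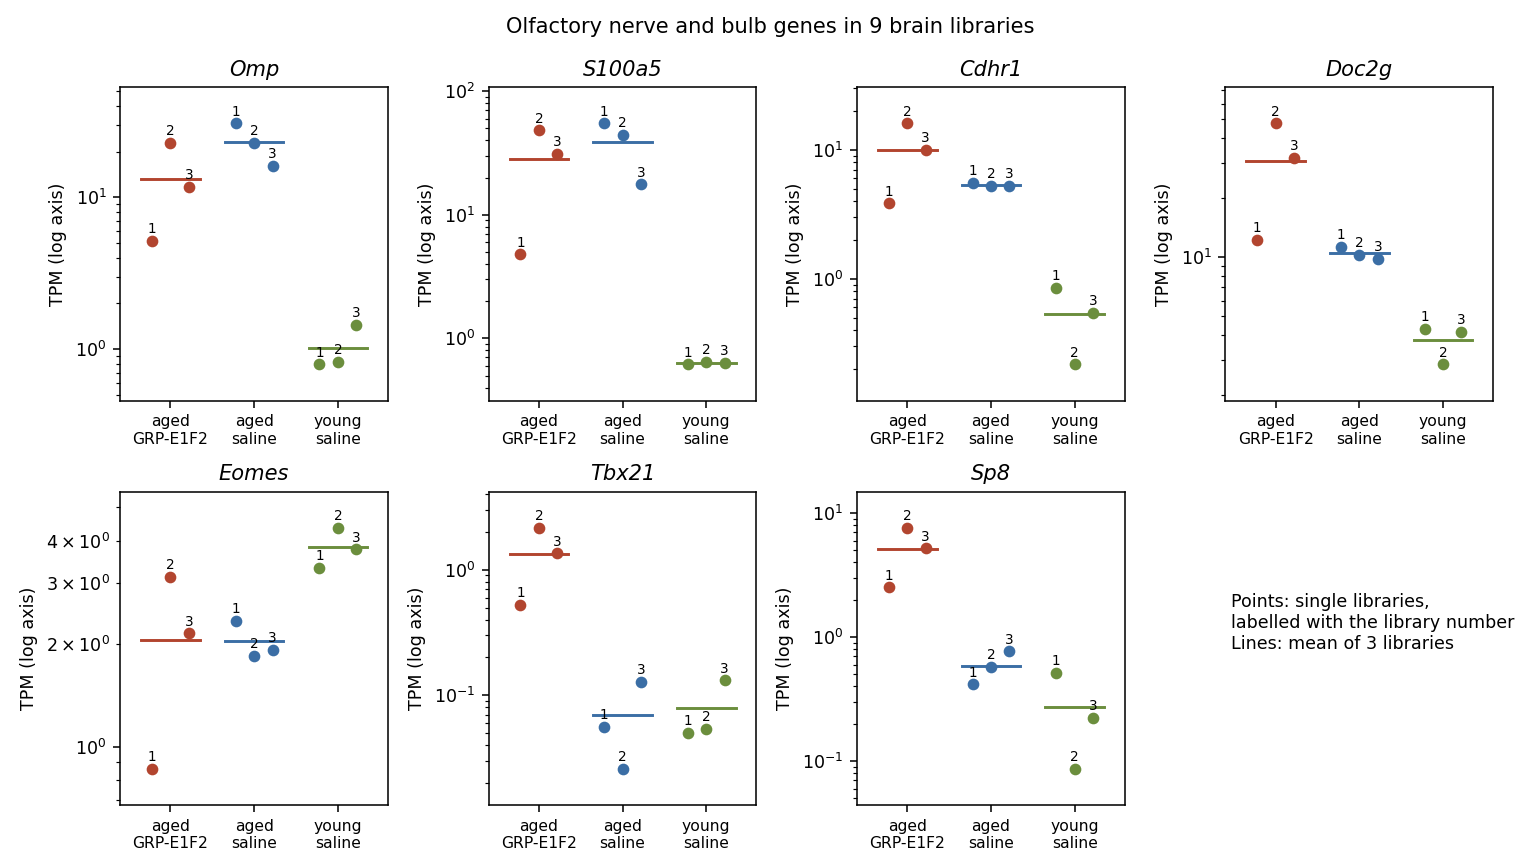
Level of each of the 7 genes in TPM on a log axis, by group, with 1 point per library labelled by its library number and a line at the mean of 3 libraries. Omp and S100a5 lay between 4.78 and 54.9 TPM in the aged groups and at 1.45 TPM or less in young saline, while Tbx21 and Sp8 were highest in aged GRP-E1F2.

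Other genes of olfactory sensory neurons were few above 1 TPM, and those tested went both ways. Of 12 genes on the list, 5 reached a mean of 1 TPM over the 9 libraries and were tested with limma. For aged saline minus young saline 1 rose and 2 fell, with a median log2 difference of 0.16, beside a median of -0.05 over all 13301 genes tested, of which 5.48% rose and 11.2% fell (16.7% in either direction). For aged GRP-E1F2 minus aged saline 1 rose and 1 fell, with a median of 0.15, beside a median of -0.02 over all genes tested, of which 7.47% rose and 13.4% fell (20.8% in either direction). In aged saline against young saline Ano2, the chloride channel of the sensory cilia, rose by 0.68 (SE 0.185, adjusted p = 0.0373) and Gng13, a G protein gamma subunit, fell by 0.66 (adjusted p = 0.0338). Gng13 was at 457, 382 and 423 TPM in aged GRP-E1F2, 836, 1058 and 1291 TPM in aged saline, and 1349, 1958 and 1694 TPM in young saline, an order opposite to that of Omp between the aged saline and young groups. Gng13 had the group order of the cerebellar sums given above, and their library order within each saline group. The part of cerebellar RNA in its level was not tested. Kirrel2, an adhesion protein of sensory axons, averaged 3.99 TPM in aged GRP-E1F2, 2.63 TPM in aged saline and 3.62 TPM in young saline, and was called in both comparisons, at adjusted p = 0.00823 for treatment and 0.0337 for age. Cnga2, a subunit of the olfactory transduction channel, was at 0.0985 TPM or less in each library, and Rtp2, a receptor transporting protein, was listed at 0 in young saline and at 0.0886 to 0.384 TPM in the aged groups. Also below the filter, Stoml3 averaged 0.765 TPM in aged GRP-E1F2, 1.29 TPM in aged saline and 0.255 TPM in young saline. Cnga4 averaged 0.622, 0.612 and 0.283 TPM in the same groups. For Stoml3 and Cnga4 each aged saline library was above each young one, while for Cnga2, Rtp1, Gfy and Umodl1 these groups overlapped. The count of age calls on this list was 0, with limma, without aged GRP-E1F2 library 3, aged saline library 1 or 2, or young saline library 2 or 3, and 3 genes had an unadjusted p under 0.05 in each of those fits. The count without the 3 middle libraries was 0 for both comparisons, with 2 genes at an unadjusted p under 0.05 in each.

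With 3 exceptions the odorant receptors were below 1 TPM in each library, and the genes of the epithelium around the sensory neurons were low. Of 1109 odorant receptor genes, which were looked up after the other values had been seen, 26 to 47 were above 0 in a library and 3 reached 1 TPM in each library, namely Or8k53, Or10ad1 and Olfr851. Or8k53 was far above the rest, at 87.0, 49.3 and 69.5 TPM in aged GRP-E1F2, 92.7, 66.2 and 46.9 TPM in aged saline, and 53.0, 45.9 and 49.4 TPM in young saline. Its libraries stood in the order of Omp in aged saline and in the reverse order in aged GRP-E1F2. Without Or8k53 the receptors summed to 9.32 to 10.1 TPM in aged GRP-E1F2, 9.58 to 13.0 TPM in aged saline and 10.6 to 13.0 TPM in young saline, ranges that overlap. The 10 genes of supporting and gland cells of the olfactory epithelium summed to 3.19 to 5.02 TPM in aged GRP-E1F2, 2.58 to 3.16 TPM in aged saline and 2.41 to 2.81 TPM in young saline. 5 of them, Cyp2g1, Ugt2a1, Obp1a, Obp1b and Cyp1a2, which encode odorant-metabolising enzymes and odorant-binding proteins, were listed at 0 in both saline groups. The 1 gene of this list that was tested, Cbr2, was not called in either comparison.

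Ensheathing glia, which wrap the axons of the olfactory nerve and its layer on the bulb, gave a mixed picture. All 8 genes on the list were tested. For aged saline minus young saline 2 rose, none fell, and the median log2 difference was 0.15. For aged GRP-E1F2 minus aged saline 1 rose and 2 fell, and the median was -0.14. Frzb, a secreted inhibitor of Wnt signals, was at 19.9, 17.8 and 19.4 TPM in aged GRP-E1F2, 13.8, 12.4 and 10.4 TPM in aged saline, and 6.26, 3.63 and 4.79 TPM in young saline, with adjusted p = 0.0245 for treatment and 0.00426 for age. Npy, a neuropeptide found in these glia and in many neurons, rose by 0.98 with age (SE 0.174, adjusted p = 0.0101). Prss56, a serine protease, was at 0.736, 5.63 and 3.05 TPM in aged GRP-E1F2, 5.78, 3.28 and 1.94 TPM in aged saline, and 1.04, 0.277 and 0.722 TPM in young saline. Its libraries stood in the same order as those of Omp within each aged group, and its age difference of 1.42 did not pass the test (adjusted p = 0.0652). Mybpc1, a myosin-binding protein, averaged 0.872 TPM in aged GRP-E1F2, 6.83 TPM in aged saline and 7.55 TPM in young saline, a fall of 2.06 with treatment (adjusted p = 6.65e-06). When the 3 middle libraries were left out, the count of age calls was 0, with 2 genes at an unadjusted p under 0.05, and of the treatment calls that of Mybpc1 was left. The count of treatment calls was 2 without aged GRP-E1F2 library 1 and 1 without aged GRP-E1F2 library 3 or aged saline library 2 or 3, and the call of Frzb was lost in each of these. The count of age calls was 1 without aged saline library 2 and 4 without aged GRP-E1F2 library 1 or 2.

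The summed neutrophil genes, like the nerve genes, were higher in aged saline than in young saline. The 8 genes of that list summed to 1.49, 4.39 and 5.23 TPM in aged GRP-E1F2, 102, 68.0 and 37.0 TPM in aged saline, and 8.86, 4.89 and 6.67 TPM in young saline. Within aged saline the sum had the same library order as Omp and S100a5, and within young saline it had the order of neither gene. In aged GRP-E1F2 the sum was low while Omp and S100a5 were not. Of the 5 tested, S100a8, S100a9, Ngp and Camp, which encode granule and calcium-binding proteins of neutrophils, were called in both comparisons, higher in aged saline each time. Ngp and Camp were below 1 TPM in each library outside aged saline and passed the filter only through that group. Their being tested and called thus depended on their level there. In a fit without the middle libraries S100a9 and Ngp fell with treatment and none was called with age, with 4 at an unadjusted p under 0.05. Elane, neutrophil elastase, was listed at 0 in aged GRP-E1F2 and in young saline. The part of these cells in the level of the nerve genes was not tested.

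**Figure D2:**
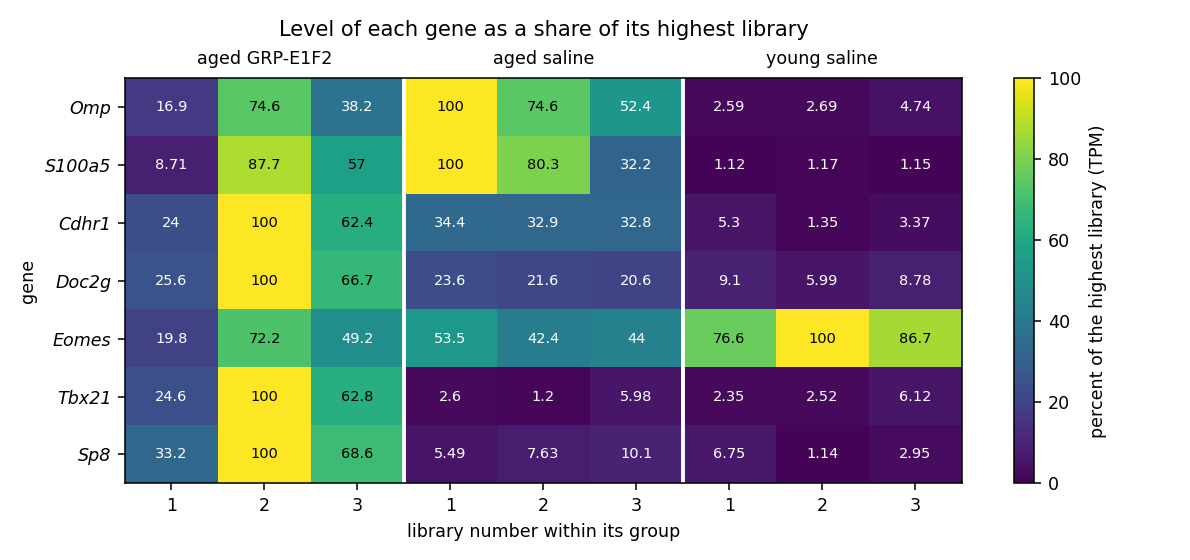
Level of each gene in each library as a percent of its highest library (TPM), with groups side by side and libraries numbered within them. Omp and S100a5 peaked in aged saline library 1, the 4 genes Cdhr1, Doc2g, Tbx21 and Sp8 peaked in aged GRP-E1F2 library 2, and Eomes peaked in young saline library 2.

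Of the 4 mitral and tufted cell genes Cdhr1 and Doc2g had the same order of group means, and Tbx21 and Eomes each had another. Cdhr1 was at 3.85, 16.0 and 10.004 TPM in aged GRP-E1F2, at 5.51, 5.27 and 5.27 TPM in aged saline, and at 0.850, 0.216 and 0.540 TPM in young saline. Each aged library was above each young one, and the aged groups overlapped, since aged GRP-E1F2 library 1 was below the aged saline libraries and the other pair above them. Its mean was 9.96 ± 6.10 TPM in aged GRP-E1F2, 5.35 ± 0.140 TPM in aged saline and 0.535 ± 0.317 TPM in young saline (SD, n = 3 each). Its log2 difference was 2.07 for aged saline minus young saline and 0.61 for aged GRP-E1F2 minus aged saline. The treatment difference was 1.11 without aged GRP-E1F2 library 1 and 0.20 without library 2. Cdhr1 is also made by photoreceptors. The 11 retinal genes summed to 5.57 to 8.33 TPM in aged GRP-E1F2, 3.53 to 3.91 TPM in aged saline and 3.35 to 6.08 TPM in young saline, and in aged GRP-E1F2 the sum was lowest in library 2, where Cdhr1 was highest. Of the retinal genes 2, Sag and Nrl, were tested, and both rose with treatment and neither was called with age. Sag averaged below 1 TPM in both saline groups, so it passed the filter only through aged GRP-E1F2.

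Doc2g was highest in aged GRP-E1F2 and lowest in young saline, and its groups did not overlap in either comparison. How many of all genes share that lack of overlap was not counted, so it cannot be read as particular to Doc2g. It was at 12.2, 47.5 and 31.7 TPM in aged GRP-E1F2, at 11.2, 10.3 and 9.78 TPM in aged saline, and at 4.33, 2.85 and 4.18 TPM in young saline. The lowest aged GRP-E1F2 library was above the highest aged saline library by a small margin. The mean was 30.5 ± 17.7 TPM in aged GRP-E1F2, 10.4 ± 0.746 TPM in aged saline and 3.78 ± 0.815 TPM in young saline (SD, n = 3 each). The log2 difference was 1.27 for age and 1.27 for treatment, with ratios of means of 2.76 and 2.92. The neighbouring Nudt8, a hydrolase gene whose reads could be shared with Doc2g through the joined gene, was at 6.45, 10.5 and 9.03 TPM in aged GRP-E1F2, 9.41, 9.36 and 12.2 TPM in aged saline, and 11.6, 12.2 and 12.2 TPM in young saline. Its young saline libraries were among its highest, while those of Doc2g were its lowest.

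Doc2g and Cdhr1 kept a steady proportion within each aged group. Doc2g divided by Cdhr1 was 3.17, 2.96 and 3.17 in aged GRP-E1F2, although each gene ranged several-fold there. In aged saline, where each gene was itself nearly level, it was 2.04, 1.95 and 1.86. In young saline, where Cdhr1 was below 1 TPM, it was 5.09, 13.2 and 7.73. The 3 groups did not overlap in this ratio. Library 3 of aged GRP-E1F2 was at 1.01 of the mean of the other pair for Cdhr1 and 1.06 for Doc2g. The steady ratio in that group thus rests mainly on libraries 1 and 2. Omp divided by Cdhr1 separated the aged groups as well, at 1.35, 1.42 and 1.17 in aged GRP-E1F2, 5.56, 4.33 and 3.05 in aged saline, and 0.933, 3.82 and 2.69 in young saline. The Omp ratio was nearly level in aged GRP-E1F2 alone. S100a5 divided by Cdhr1 was less steady than the Omp ratio within the aged groups. It was 1.24, 3.00 and 3.13 in aged GRP-E1F2, 9.96, 8.37 and 3.35 in aged saline, and 0.723, 2.98 and 1.17 in young saline.

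Tbx21 was near 0 in both saline groups and above it in aged GRP-E1F2. It was at 0.527, 2.15 and 1.35 TPM in aged GRP-E1F2, at 0.0558, 0.0259 and 0.128 TPM in aged saline, and at 0.0506, 0.0540 and 0.131 TPM in young saline. Each aged GRP-E1F2 library was above each of the saline libraries, and the saline groups overlapped. The mean was 1.34 ± 0.810 TPM in aged GRP-E1F2, 0.0700 ± 0.0528 TPM in aged saline and 0.0787 ± 0.0457 TPM in young saline (SD, n = 3 each). The log2 difference was 1.07 for treatment and -0.01 for age, and the ratio of aged GRP-E1F2 to aged saline means, 19.1, rests on a level near 0. With a mean of 0.497 TPM over all libraries Tbx21 was the 1 gene of the 7 below the filter of 1 TPM. Tbx21 is also known as T-bet, a factor of T helper and natural killer cells. The 11 genes of those cells summed to 0.702 to 0.865 TPM in aged GRP-E1F2, 0.462 to 1.20 TPM in aged saline and 0.463 to 0.588 TPM in young saline, none was tested, and Ifng was listed at 0 in all libraries.

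Eomes, the other T-box factor, was highest in young mice. It was at 0.860, 3.14 and 2.14 TPM in aged GRP-E1F2, at 2.33, 1.84 and 1.92 TPM in aged saline, and at 3.34, 4.35 and 3.77 TPM in young saline. Each young library was above each aged library. The mean was 2.05 ± 1.14 TPM in aged GRP-E1F2, 2.03 ± 0.261 TPM in aged saline and 3.82 ± 0.510 TPM in young saline (SD, n = 3 each). On the log2 scale the difference was -0.67 for age and -0.06 for treatment, and the treatment difference turned to 0.26 without aged GRP-E1F2 library 1 and was -0.32 without library 2. Eomes is also made by unipolar brush cells of the cerebellum. The 6 genes listed for those cells summed to 36.7, 22.2 and 29.9 TPM in aged GRP-E1F2, 51.1, 56.5 and 61.4 TPM in aged saline, and 71.9, 82.6 and 75.8 TPM in young saline, and of 5 tested 4 fell with treatment and 2 with age. Lmx1a, a transcription factor of unipolar brush cells, was listed at 0 in aged GRP-E1F2 and was at 0.118 to 0.232 TPM in aged saline and 0.383 to 0.571 TPM in young saline. Eomes and Tbx21 were thus arranged differently over the groups, although both mark bulb projection neurons. The part of cerebellar cells in the level of Eomes was not tested.

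The other genes of bulb projection neurons went both ways. All 12 on the list were tested with limma. For aged GRP-E1F2 minus aged saline 3 rose and 4 fell, with a median log2 difference of 0.08, and for aged saline minus young saline 1 rose and 4 fell, with a median of -0.06. The 3 that rose with treatment were Lbhd2, Shisa3 and Nmb, and Shisa3, like Tbx21, was below 1 TPM in each saline library. Shisa3 thus passed the filter only through aged GRP-E1F2, and its being tested and called depended on its level there. Shisa3, a regulator of Wnt and FGF receptors, was at 1.93, 6.97 and 4.66 TPM in aged GRP-E1F2, 0.771, 0.239 and 0.838 TPM in aged saline, and 0.536, 0.405 and 0.395 TPM in young saline, a rise of 1.68 with treatment (SE 0.316, adjusted p = 0.00671). Nmb, the peptide neuromedin B, was at 15.3, 46.4 and 33.3 TPM in aged GRP-E1F2, 12.0, 14.7 and 10.5 TPM in aged saline, and 13.1, 7.78 and 11.2 TPM in young saline, a rise of 1.17 (SE 0.346, adjusted p = 0.0424) whose call was lost in 7 of the 9 fits that leave out 1 library. Both had the library order of the 7 genes within aged GRP-E1F2. Lbhd2, whose role is not described here, averaged 51.6 TPM in aged GRP-E1F2, 16.2 TPM in aged saline and 15.6 TPM in young saline, and its aged GRP-E1F2 libraries were nearly level.

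The genes that fell with treatment were Reln, Lhx5, Lhx1 and Barhl2. Lhx1, a LIM homeodomain factor of mitral cells and of cerebellar Purkinje cells, averaged 0.0626 TPM in aged GRP-E1F2, 7.12 TPM in aged saline and 12.6 TPM in young saline, with adjusted p = 2.07e-06 for treatment and 0.0108 for age. Its relative Lhx5 averaged 0.274 TPM in aged GRP-E1F2, 4.31 TPM in aged saline and 7.78 TPM in young saline. Reln, the secreted protein reelin of mitral cells and of cerebellar granule cells, averaged 5.21 TPM in aged GRP-E1F2, 8.76 TPM in aged saline and 12.7 TPM in young saline. These genes stood in the order of the groups' cerebellar sums given above, and the part of cerebellar RNA in them was not tested. Tbr1, a T-box factor of mitral cells and of cortical neurons, rose by 1.42 with age (SE 0.334, adjusted p = 0.0247), at 30.1 TPM in aged GRP-E1F2, 21.8 TPM in aged saline and 8.09 TPM in young saline. Unlike the 7 genes it was highest in library 1 of aged GRP-E1F2, and so was the sum of the 8 neocortical genes, at 215, 107 and 160 TPM in aged GRP-E1F2, 166, 144 and 132 TPM in aged saline, and 112, 97.3 and 103 TPM in young saline. Of these 8 genes 3 rose with age, Tbr1 among them, and none was called with treatment. The count of age calls on the projection list, 5, was 3 without aged GRP-E1F2 library 3, 2 without aged saline library 1, 1 without young saline library 2, 0 without aged saline library 2 or young saline library 3, each with 6 genes at an unadjusted p under 0.05, and 8 without aged GRP-E1F2 library 1. With the middle libraries left out Lhx1, Lhx5 and Barhl2 fell with treatment and none rose, and the age count was 0, with 5 genes at an unadjusted p under 0.05.

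Sp8, the interneuron gene, was high in aged GRP-E1F2 and below 1 TPM in both saline groups. It was at 2.51, 7.57 and 5.19 TPM in aged GRP-E1F2, at 0.415, 0.578 and 0.765 TPM in aged saline, and at 0.511, 0.0861 and 0.223 TPM in young saline. Each aged GRP-E1F2 library was above each of the saline libraries, and the saline groups overlapped. The mean was 5.09 ± 2.53 TPM in aged GRP-E1F2, 0.586 ± 0.175 TPM in aged saline and 0.273 ± 0.217 TPM in young saline (SD, n = 3 each). The log2 difference was 1.85 for treatment, the widest of the 7 genes, with a ratio of means of 8.69, and 0.32 for age. Sp8 divided by Cdhr1 was 0.652, 0.472 and 0.519 in aged GRP-E1F2, 0.0753, 0.110 and 0.145 in aged saline, and 0.601, 0.399 and 0.414 in young saline. The ratio was several times lower in aged saline than in aged GRP-E1F2, while in young saline both genes were below 1 TPM and the ratio rests on low values.

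The list of bulb interneuron genes was divided as well. Of 14 genes 13 were tested with limma. For aged GRP-E1F2 minus aged saline 5 rose and 3 fell, with a median log2 difference of 0.56, and for aged saline minus young saline 1 rose and 3 fell, with a median of -0.18. Scgn, the calcium-binding protein secretagogin of bulb interneurons, was at 4.12, 14.1 and 8.27 TPM in aged GRP-E1F2, 0.877, 0.690 and 0.788 TPM in aged saline, and 0.242, 0.385 and 0.313 TPM in young saline, a rise of 2.33 with treatment (SE 0.311, adjusted p = 0.00115). Both Scgn and Sall3 were below 1 TPM in each saline library and passed the filter only through aged GRP-E1F2. That they were tested at all, and so counted as risen, thus depended on their level in that group. Sp9, a close relative of Sp8, was at 9.51, 16.8 and 14.8 TPM in aged GRP-E1F2, 4.46, 4.46 and 4.63 TPM in aged saline, and 3.89, 1.43 and 2.97 TPM in young saline, a rise of 1.38 (SE 0.257, adjusted p = 0.00639). Meis2, Tshz1 and Sall3, transcription factors of these interneurons, rose with treatment too, the call of Tshz1 being lost in 8 of the 9 fits that leave out 1 library, and each of the 5 was highest in library 2 and lowest in library 1 of aged GRP-E1F2. Th, tyrosine hydroxylase of dopaminergic periglomerular cells, followed that order, at 4.76, 20.2 and 13.0 TPM in aged GRP-E1F2, 5.45, 8.74 and 11.7 TPM in aged saline, and 8.24, 10.8 and 9.55 TPM in young saline, and was not called.

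Calb1, Pax6 and Etv1 fell in both comparisons. Calb1, calbindin, which is also on the cerebellar list, averaged 96.7 TPM in aged GRP-E1F2, 238 TPM in aged saline and 371 TPM in young saline, with adjusted p = 4.67e-05 for treatment and 0.00734 for age. Pax6, a transcription factor that cerebellar granule cells make too, averaged 7.86 TPM in aged GRP-E1F2, 18.2 TPM in aged saline and 31.2 TPM in young saline. These genes had the group order of the cerebellar sums, unlike Sp8, Sp9 and Scgn, and the part of cerebellar RNA in them was not tested. Calb1 is itself part of those sums, and most of them in aged GRP-E1F2, so for Calb1 the shared order is partly built in. The count of age calls on the interneuron list, 4, was 2 without aged saline library 1, aged saline library 3 or young saline library 2, and 1 without aged saline library 2 or young saline library 3. Without the 3 middle libraries Calb1, Pax6 and Etv1 fell with treatment and none rose, so that the calls of Scgn, Sp9, Meis2, Tshz1 and Sall3 were lost, and the age count was 0, with 3 genes at an unadjusted p under 0.05. Without those libraries the treatment difference of Sp8 was 1.79, that of Tbx21 1.01 and that of Doc2g 1.14.

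Most tested genes of migrating neuroblasts rose in aged GRP-E1F2 against aged saline. Of 6 tested genes 4 rose and none fell for aged GRP-E1F2 minus aged saline, with a median log2 difference of 1.16, and for aged saline minus young saline 2 rose and 2 fell, with a median of 0.44. Igfbpl1, an insulin-like growth factor binding protein of young neurons, was at 3.98, 4.85 and 4.35 TPM in aged GRP-E1F2, 0.140, 0.389 and 0.439 TPM in aged saline, and 1.38, 0.664 and 1.16 TPM in young saline, a rise of 2.03 with treatment (SE 0.150, adjusted p = 3.66e-05). Cd24a, a surface glycoprotein and the most abundant gene of the list, was at 46.3, 57.4 and 58.0 TPM in aged GRP-E1F2, 25.0, 35.4 and 38.9 TPM in aged saline, and 69.4, 57.7 and 70.2 TPM in young saline, with adjusted p = 0.0156 for treatment and 0.00806 for age. Its mean was highest in young saline, whose libraries overlapped those of aged GRP-E1F2. Dlx5 and Sox11 did not pass for treatment, and their aged groups overlapped. Dlx1, a homeodomain factor of forebrain inhibitory neurons, was at 36.0, 46.3 and 40.6 TPM in aged GRP-E1F2, 14.3, 13.7 and 13.7 TPM in aged saline, and 10.1, 5.00 and 7.70 TPM in young saline, with adjusted p = 0.000944 for treatment and 0.0222 for age. Dcx, doublecortin, was below the filter, at 1.46, 1.98 and 1.94 TPM in aged GRP-E1F2, 0.744, 0.459 and 0.748 TPM in aged saline, and 0.449, 0.500 and 0.215 TPM in young saline. In the fit of 6 libraries without the middle ones Igfbpl1 rose with treatment and no other gene of the list was called, and the age count was 0, with 4 genes at an unadjusted p under 0.05. The age count of 4 was 1 without aged saline library 1 or 2 or young saline library 3.

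**Figure D3:**
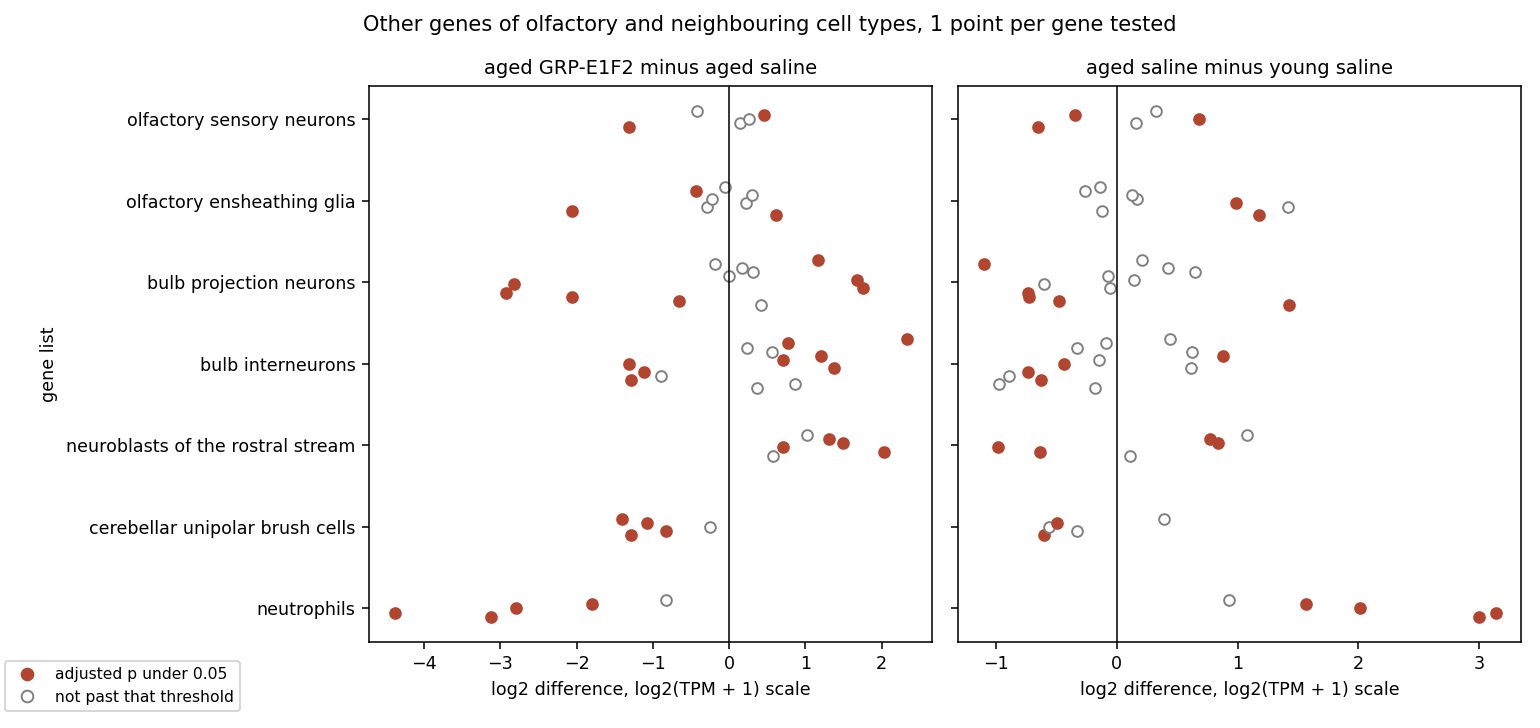
Log2 difference of each tested gene of 7 lists, on the log2(TPM + 1) scale, with aged GRP-E1F2 minus aged saline on the left and aged saline minus young saline on the right. Filled points passed an adjusted p of 0.05 with limma, open points did not, the vertical line marks no difference, and the horizontal axes differ in range. The 2 bulb lists lie on both sides of the line, while the 6 neuroblast genes lie to the right of it for treatment.

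Within aged GRP-E1F2 all 7 genes had the same library order, with library 2 highest, library 3 between and library 1 lowest. In aged saline 4 of the 7, Omp, S100a5, Cdhr1 and Doc2g, were highest in library 1 and lowest in library 3, and Sp8 had the reverse order. In young saline 3 orders occurred. In aged GRP-E1F2 library 2 exceeded library 1 by a ratio of 3.02 for Sp8, 3.65 for Eomes, 3.90 for Doc2g, 4.07 for Tbx21, 4.17 for Cdhr1, 4.40 for Omp and 10.1 for S100a5. Library 3 of that group lay between the other pair at 94.3% of the genes at which that pair differed, as given above. The share of all genes with library 2 highest and library 1 lowest was not counted, so the shared order cannot be read as particular to the 7 genes. Pituitary hormone genes had that order in their sum, over a wider range. The 8 genes of that list summed to 4.34, 884 and 447 TPM in aged GRP-E1F2, 25.6, 21.7 and 21.9 TPM in aged saline, and 5.63, 5.83 and 6.12 TPM in young saline. Of those tested, none was called in either comparison with limma. The neocortical sum given above ran the other way over the aged GRP-E1F2 libraries, and the part of differences in the tissue sampled was not tested.

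The middle library of aged GRP-E1F2, library 3, was close to the mean of the other pair for these genes. Its level divided by that mean was 1.01 for Cdhr1, 1.01 for Tbx21, 1.03 for Sp8, 1.06 for Doc2g and 1.07 for Eomes, and 0.834 for Omp and 1.18 for S100a5. In aged saline, library 2 lay between the other pair for 5 of the 7 genes and was at 0.978 of their mean for Cdhr1 and 0.978 for Doc2g. In young saline, library 3 lay between the others for 5 of the 7 genes, and its ratio to their mean ran from 0.749 for Sp8 to 2.51 for Tbx21, whose levels there were at 0.131 TPM or less.

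**Figure D4:**
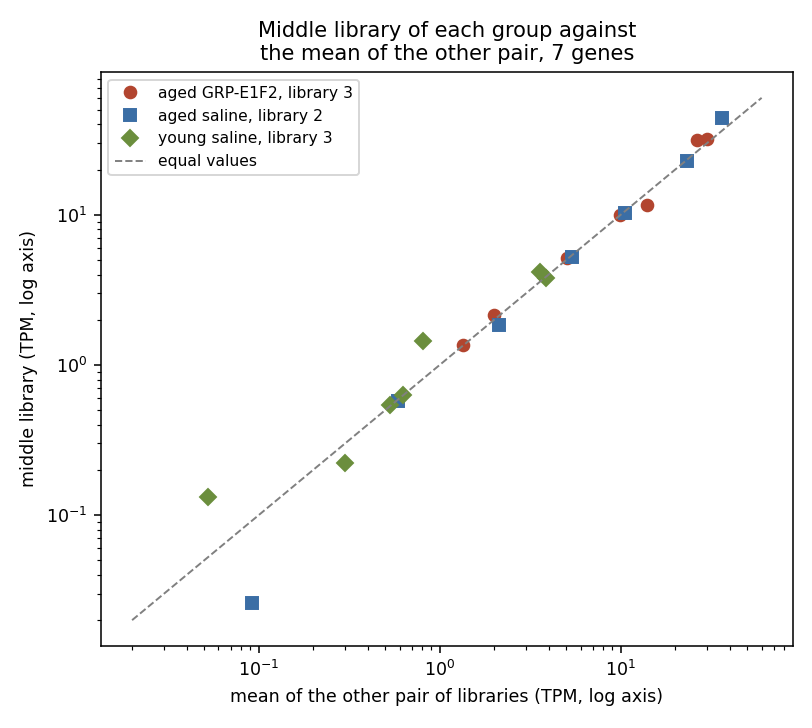
Level of each of the 7 genes in the middle library of its group against the mean of the other pair of libraries, both in TPM on log axes, with 1 point per gene and group. The dashed line marks equal values, and the aged GRP-E1F2 points lie at 0.834 to 1.18 of it, while the 2 points farthest from the line are those of Tbx21 in the saline groups.

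By mean level the order of the 7 genes differed between groups. In aged GRP-E1F2 Doc2g and S100a5 were highest, followed by Omp and Cdhr1, then Sp8, Eomes and Tbx21, and neighbours in that order overlapped. In aged saline S100a5 and Omp overlapped, Omp was above Doc2g, Doc2g was above Cdhr1, Cdhr1 was above Eomes, Eomes was above Sp8 and Sp8 was above Tbx21, with no overlap between these last 6. In young saline Eomes and Doc2g overlapped at the top and Omp, S100a5, Cdhr1, Sp8 and Tbx21 followed at 1.45 TPM or less. The group mean reached 1 TPM for all 7 genes in aged GRP-E1F2, for 5 in aged saline and for 3 in young saline.

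Likeness over the 9 libraries was measured by Pearson's r of log2(TPM + 1). Among the 7 genes themselves the most alike pairs were Omp and S100a5 (r = 0.98), Tbx21 and Sp8 (r = 0.97) and Cdhr1 and Doc2g (r = 0.96), and Eomes had a negative r with each of the other 6. The 3 most alike genes were then found for each of the 7 among 12922 other tested genes, with predicted genes and the 7 left out. The libraries share 3 groups and the middle libraries, so the values describe likeness and are given without a p. Sp8 was most like Gng4 (r = 0.99), a G protein gamma subunit, which was at 261, 585 and 419 TPM in aged GRP-E1F2, 95.8, 98.7 and 108 TPM in aged saline, and 104, 61.5 and 97.7 TPM in young saline. Tbx21 was most like Myo16 (r = 1.00), an unconventional myosin, at 6.67, 15.4 and 11.005 TPM in aged GRP-E1F2, 4.72, 4.56 and 5.06 TPM in aged saline, and 4.46, 4.75 and 4.73 TPM in young saline. Sall1, a zinc finger transcription factor, was among the 3 for both Sp8 (r = 0.99) and Tbx21 (r = 0.99). Omp and S100a5 shared Casp9, the initiator caspase of the mitochondrial death pathway, and Gbp3, an interferon-induced GTPase. Casp9 was at 9.99, 21.5 and 15.6 TPM in aged GRP-E1F2, 21.8, 17.9 and 14.3 TPM in aged saline, and 8.49, 8.63 and 8.91 TPM in young saline. Outside the 7, Gpr12, an orphan receptor, was nearest to Omp (r = 0.97) and Acvrl1, a receptor of the TGF-beta family, to S100a5 (r = 0.98), each slightly less alike than Omp and S100a5 were to each other. Dtnbp1, which encodes dysbindin, was nearest to Cdhr1 (r = 0.99), Ppp1r2, a phosphatase inhibitor, to Doc2g (r = 0.99), and Strip2 to Eomes (r = 0.99).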

How the data were processed

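Libraries were made with the NEBNext Ultra II kit from 0.4 ug of RNA, per the labels' protocols. HISAT2, Picard, SAMtools 0.1.18, GATK and the build mm10 are named in the submitters' processing notes. The deposited values are TPM per gene, computed by the authors. The sources used here do not give the quantifier, its annotation, its use of strand or its handling of shared reads. Library sums were 999667 to 999929 TPM, and depth is unknown.

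Genes were matched by the table's symbols and NCBI identifiers. The 13301 genes whose mean reached 1 TPM were tested on log2(TPM + 1), two-sided, with limma 3.58.1 (R 4.3.3, trended eBayes, all 9 libraries). Adjustment was by Benjamini-Hochberg across these genes, and "rose", "fell" and "called" mean an adjusted p under 0.05. The fit was tested on simulated data in which all libraries were independent. The real data hold the middle libraries, so that test does not give the error rate here. Aged GRP-E1F2 minus young saline was not tested. Tables and figures used Python 3.11.15, numpy 2.4.6, pandas 2.3.3 and matplotlib 3.10.9.

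The 7 genes and the 14 gene lists were chosen with earlier results of these data known. Of 133 list symbols 132 were found, and Dlx6os1 was not analysed here. Named genes were drawn from the 7, the 2 genes per list with the smallest p in each comparison and the 2 with the highest mean TPM, and the 3 genes most like each of the 7. Other list genes, the genes next to Omp, S100a5 and Doc2g, and the odorant receptors were named after their values were seen. Alternatives were pseudocounts of 0.1 and 5 TPM, other filters, 2 scalings, the replicate block, fits of 2 groups, robust eBayes and leaving out libraries, which for the glia, neuroblast, neutrophil and cerebellar lists was added after the data were seen.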

Additional observations from a re-analysis of the deposited data

How the results depend on the processing

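Of 294 log2 differences of the 7 genes under the alternatives, 22 moved by over 1 SD, all of them with a pseudocount of 0.1 or 5 TPM. The sign changed for S100a5 and Eomes with treatment, as given above, for Eomes with treatment also after quantile normalisation (0.04) and without aged saline library 1 (0.01), and for Tbx21 with age, which ranged from -0.09 to 0.05. Without the 3 middle libraries the genes called were 3 for age (1431 at an unadjusted p under 0.05), against 2217 in the fit of all libraries, and 248 for treatment, against 2771. The list counts for age were then 0 for sensory neurons, projection neurons and interneurons, against 3, 5 and 4, and for treatment 0, 3 and 3, against 2, 7 and 8. When each library was left out in turn, genes called ranged from 371 to 2635 for age and from 1345 to 3060 for treatment. For age, the list counts ranged from 0 to 3 for sensory neurons, 0 to 8 for projection neurons and 1 to 6 for interneurons, and for treatment they were 2 throughout, 6 to 7 and 7 to 11. The counts of genes called were 371, 379, 635, 1172 and 1330 for age without young saline library 3, aged saline library 2, young saline library 2, aged GRP-E1F2 library 3 and aged saline library 1, and 1345 and 1376 for treatment without aged saline library 2 and aged GRP-E1F2 library 3. The sensory neuron count was 5 for age and 4 for treatment with no filter, and 1 and 1 with a mean of at least 5 TPM, settings that change how many genes are tested. With only the groups compared in the fit, the age count was 1 for sensory neurons and 8 for interneurons, and the cause was not tested. Age calls were 922 up and 1014 down after median-of-ratios scaling and 951 and 1068 after quantile normalisation, against 729 and 1488 as deposited. Treatment calls were 1288 up and 1615 down and 1425 and 1487, against 994 and 1777. Same-numbered libraries of different groups correlated at -0.055 to 0.126 in their deviations from the group means, so the numbers did not pair the libraries. With the replicate block the calls were 2055 for age and 2589 for treatment. TPM gives no depth, so the counting error of low levels, such as those of Tbx21 in the saline groups, is unknown.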
